A study of Mus musculus with 13 samples.

Results

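Induced pluripotent stem (iPS) clones 1 and 5 were compared with clones 2 and 6, 4 mouse clones of the same reprogramming experiment, over the 16661 rows (transcript clusters) of an exon array. A row was taken when the 4 arrays of clones 1 and 5 and the 4 arrays of clones 2 and 6 did not overlap in log2 signal. By this rule 891 rows (5.35% of all rows tested) were higher in clones 1 and 5 and 331 rows (1.99%) were higher in clones 2 and 6, 1222 rows in all. The pairing of the clones and the rows were both chosen from the measured values, so the differences between the 2 pairs are given as a description, without a test. Where the arrays of embryonic stem (ES) cells and of embryonic fibroblasts (MEF) stood for these rows was not part of the choice.

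The 13 arrays were Affymetrix Mouse Exon 1.0 ST arrays hybridised with amplified, biotin-labelled total RNA. Clones 1, 5, 2 and 6 had 2 arrays each, MPSVII ES cells had 2, B6 Blu ES cells had 1 and MEF had 2. MPSVII stands for a storage disease of lysosomes, mucopolysaccharidosis type VII, in which beta-glucuronidase, the enzyme encoded by Gusb, is missing. The titles name MPSVII for the clones, the MPSVII ES cells and the MEF, while the source and growth labels of the clones and MEF name wildtype C57Bl/6 embryos. The strain was given as C57Bl/6 for the clones, the MPSVII ES cells and MEF and as C57BL/6NTac for B6 Blu ES. The growth label, shared by all samples, describes transduction of fibroblasts with a lentivirus named OSK (the usual name for Oct4, Sox2 and Klf4), picking of colonies and their expansion on MEF feeder layers. Each clone is a line from a picked colony, and no label says whether the 2 arrays of a line came from separate cultures. Array spread within a line may therefore be technical, and each pair of clones holds 2 independent lines at most.

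All 4 clones carried the transcripts of pluripotent cells. Nanog, a transcription factor of the pluripotent state, averaged 9.12 in clones 1 and 5 and 9.14 in clones 2 and 6, with 4.58 and 4.22 in MEF. Epcam, an epithelial adhesion molecule lost in fibroblasts, averaged 8.42 in clones 1 and 5 and 7.79 in clones 2 and 6, with 2.20 and 2.73 in MEF. Gusb averaged 3.74 in clones 1 and 5 and 3.74 in clones 2 and 6. None of these, nor Pou5f1, Sox2, Klf4 and Sall4, separated the pairs. Over all rows, clone 6 correlated more closely with clone 1 (r between 0.965 and 0.976) than with clone 2 (0.950 to 0.955), and clones 1 and 5 correlated with r between 0.963 and 0.977. These correlations are across rows, which are not independent replicates. The arrays of clone 2 also had the narrowest interquartile ranges (1.88 and 1.70 log2 units, against 1.96 to 2.39 in the other clones).

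The rows with the largest differences between the pairs belonged to genes of unlike function. Edf1 encodes a transcriptional coactivator that bridges regulators and the basal machinery and is also known to bind stalled ribosomes. H2bu2 encodes a histone H2B. Txnip encodes an arrestin-like protein that restrains thioredoxin and glucose uptake and is induced when glucose metabolites accumulate, through the factors MondoA and ChREBP acting with Mlx at a carbohydrate response element. The promoters of these 3 genes are shown because their rows differed most and because all 3 hold more than 1 CCAAT box, the sequence bound by the factor NF-Y. Their CCAAT counts were thus part of the choice. They run from 250 bases before to 50 bases after the annotated start, on the plus strand of GRCm38.p6 (RefSeq). Capitals mark CCAAT on either strand (ATTGG where it lies on the other strand) and, in Txnip, CACGAG, the repeated unit of its known carbohydrate response element.
Edf1, chr2:25557597-25557896: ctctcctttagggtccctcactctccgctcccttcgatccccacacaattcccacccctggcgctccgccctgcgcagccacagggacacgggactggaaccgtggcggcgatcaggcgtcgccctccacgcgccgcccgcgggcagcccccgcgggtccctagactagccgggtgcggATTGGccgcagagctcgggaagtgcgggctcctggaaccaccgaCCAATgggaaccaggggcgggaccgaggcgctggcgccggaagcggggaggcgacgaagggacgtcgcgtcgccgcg
H2bu2, chr11:58948661-58948960: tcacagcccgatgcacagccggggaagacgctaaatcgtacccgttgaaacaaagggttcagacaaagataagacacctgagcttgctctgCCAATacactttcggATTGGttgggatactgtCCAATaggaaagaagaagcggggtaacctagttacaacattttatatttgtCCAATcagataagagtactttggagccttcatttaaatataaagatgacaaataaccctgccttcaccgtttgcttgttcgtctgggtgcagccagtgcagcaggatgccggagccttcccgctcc
Txnip, chr3:96557707-96558006: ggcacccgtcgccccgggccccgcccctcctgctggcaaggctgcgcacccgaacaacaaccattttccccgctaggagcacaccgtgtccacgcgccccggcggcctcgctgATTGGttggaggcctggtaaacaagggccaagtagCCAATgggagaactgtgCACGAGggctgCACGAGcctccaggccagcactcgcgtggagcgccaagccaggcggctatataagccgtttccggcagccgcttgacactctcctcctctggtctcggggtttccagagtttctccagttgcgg
CCAAT was found 2 times in Edf1, 4 times in H2bu2 and 2 times in Txnip, and CACGAG 2 times in Txnip and 0 times in the others. The palindromic E-box CACGTG occurred in none of the 3 windows, and no matches overlapped. The same window of Arrdc4, a gene whose arrays overlapped between the pairs, held CCAAT 6 times and CACGTG 1 time. These matches are letters in a window and were not tested for binding.

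Across the promoters of genes higher in clones 1 and 5 (854 promoters of 685 genes), 41.0% held CCAAT on either strand and 18.9% held it 2 or more times. For genes higher in clones 2 and 6 (281 promoters of 220 genes) these shares were 33.8% and 10.7%, and for all single-gene rows tested (14847 promoters of 11830 genes) 37.5% and 12.7%. The letters G and C made up a median of 61% of the promoter in the genes higher in clones 1 and 5, 55.7% in those higher in clones 2 and 6 and 58.3% in all. CACGAG was found in 9.37% of promoters of genes higher in clones 1 and 5, 7.47% for clones 2 and 6 and 7.36% for all. CACGTG was found in 7.85%, 8.90% and 8.62% of the same 3 sets. The motifs were chosen after the values were seen, and promoters of the same gene are not independent.

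Edf1 had the largest difference of all named rows. Its signal was 9.27 and 8.43 in clone 1 and 9.81 and 9.50 in clone 5, against 5.91 and 5.81 in clone 2 and 6.00 and 6.55 in clone 6. The means were 9.25 ± 0.59 in clones 1 and 5 and 6.07 ± 0.33 in clones 2 and 6 (SD, n = 4 arrays each), a difference of 3.18 log2 units. MPSVII ES cells stood with clones 1 and 5, at 9.02 and 8.68, while B6 Blu ES, at 5.41, and MEF, at 7.25 and 5.93, lay nearer clones 2 and 6. Edf1 was higher in MPSVII ES than in MEF by 2.26 ± 0.43 (limma, SE, adjusted p = 0.0103).

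H2bu2 was higher in clones 1 and 5 than on every other array of the series. Its signal was 5.82 and 4.49 in clone 1 and 5.86 and 5.59 in clone 5, against 3.18 and 1.96 in clone 2 and 2.54 and 2.70 in clone 6. All 5 arrays of other lines were also low, with 2.55 and 1.32 in MPSVII ES, 3.40 in B6 Blu ES and 1.25 and 2.79 in MEF. The difference between the pairs was 2.84, and MPSVII ES and MEF did not differ beyond the spread (-0.08 ± 0.58, adjusted p = 0.949). H2B genes are near copies of each other, and which copies the probes bind was not examined. Of 20 measured histone genes, H2bu2 and the linker histone gene H1f5 were without overlap, H1f5 in the other direction at 5.94 and 6.41.

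Txnip signal was 9.55 and 9.81 in clone 1 and 9.47 and 8.998 in clone 5, against 6.20 and 5.55 in clone 2 and 7.26 and 7.91 in clone 6. Clone 6 thus lay between clone 2 and clones 1 and 5, with clone means of 9.68, 9.23, 5.88 and 7.59 for clones 1, 5, 2 and 6. MPSVII ES, at 7.58 and 7.76, lay within the range of clone 6, B6 Blu ES, at 6.15, within that of clone 2, and MEF, at 8.32 and 7.99, above both and below clones 1 and 5. The difference between the pairs was 2.73, and MPSVII ES minus MEF was -0.49 ± 0.22 (adjusted p = 0.175). Arrdc4, a related arrestin-like gene that is also induced by glucose, averaged 6.59 in clones 1 and 5 and 5.61 in clones 2 and 6, but the arrays overlapped, since clone 6 reached 6.41 and clone 1 went down to 6.30. Mlxip, which encodes MondoA, was without overlap by a small margin, at 4.76, 4.73, 4.63 and 4.57 in clones 1 and 5 against 4.57, 4.11, 4.32 and 4.37 in clones 2 and 6. Arrdc4 and Mlxip were picked after their values were seen.

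The other 9 named rows higher in clones 1 and 5 differed by 1.72 to 2.18. Krt18, a keratin of simple epithelia and trophectoderm, had 6.81, 7.03, 8.31 and 8.02 in clones 1 and 5 against 5.33, 4.44, 6.22 and 5.87 in clones 2 and 6. MPSVII ES, at 6.31 and 6.37, lay between the pairs, MEF were at 5.53 and 6.56, and B6 Blu ES, at 7.40, was within the range of clones 1 and 5. Fam111a, a protease gene active in DNA replication, had 7.44, 7.89, 7.05 and 6.93 in clones 1 and 5 against 5.65, 4.89, 5.13 and 5.60 in clones 2 and 6. MEF matched clones 1 and 5 at 7.62 and 7.88, and MPSVII ES matched clones 2 and 6 at 5.17 and 5.81 (-2.26 ± 0.27, adjusted p = 0.00183).

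Arhgap29 was above all clone arrays in MEF and just above clones 2 and 6 in the ES cells. It had 5.78, 6.40, 6.66 and 5.87 in clones 1 and 5 against 4.06, 3.95, 4.74 and 4.62 in clones 2 and 6, with 4.81 and 4.89 in MPSVII ES, 4.90 in B6 Blu ES and 7.27 and 7.23 in MEF. Ifi27, an interferon-induced gene, was at 6.11, 6.59, 6.10 and 5.05 in clones 1 and 5 against 3.99, 4.19, 4.51 and 4.08 in clones 2 and 6. Both were lower in MPSVII ES than in MEF, by -2.40 ± 0.19 for Arhgap29 (adjusted p = 0.000421) and -1.89 ± 0.38 for Ifi27 (adjusted p = 0.0134). Esd, which encodes esterase D, was at 7.01, 7.29, 7.77 and 7.58 in clones 1 and 5 against 3.58, 5.57, 6.24 and 6.64 in clones 2 and 6, where the 2 arrays of clone 2 differed by more than those of any other line.

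Cdc7 encodes the kinase that fires replication origins. It had 6.76, 6.99, 7.23 and 7.03 in clones 1 and 5 against 5.03, 4.67, 5.78 and 5.66 in clones 2 and 6. ES cells were near clones 2 and 6, at 5.32 and 5.37 in MPSVII ES and 5.06 in B6 Blu ES, and MEF lower, at 4.13 and 4.03. The remaining 3 named rows, A630012P03Rik, 2410017I17Rik and Gdap10, differed by 2.18, 1.85 and 1.73. For these 3, as for Cdc7, every other array of the series was below the lowest array of clones 1 and 5, and 2410017I17Rik was at 1.34 to 2.02 in the 5 ES and MEF arrays against 2.83 to 3.73 in clones 1 and 5.

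**Figure D1:**
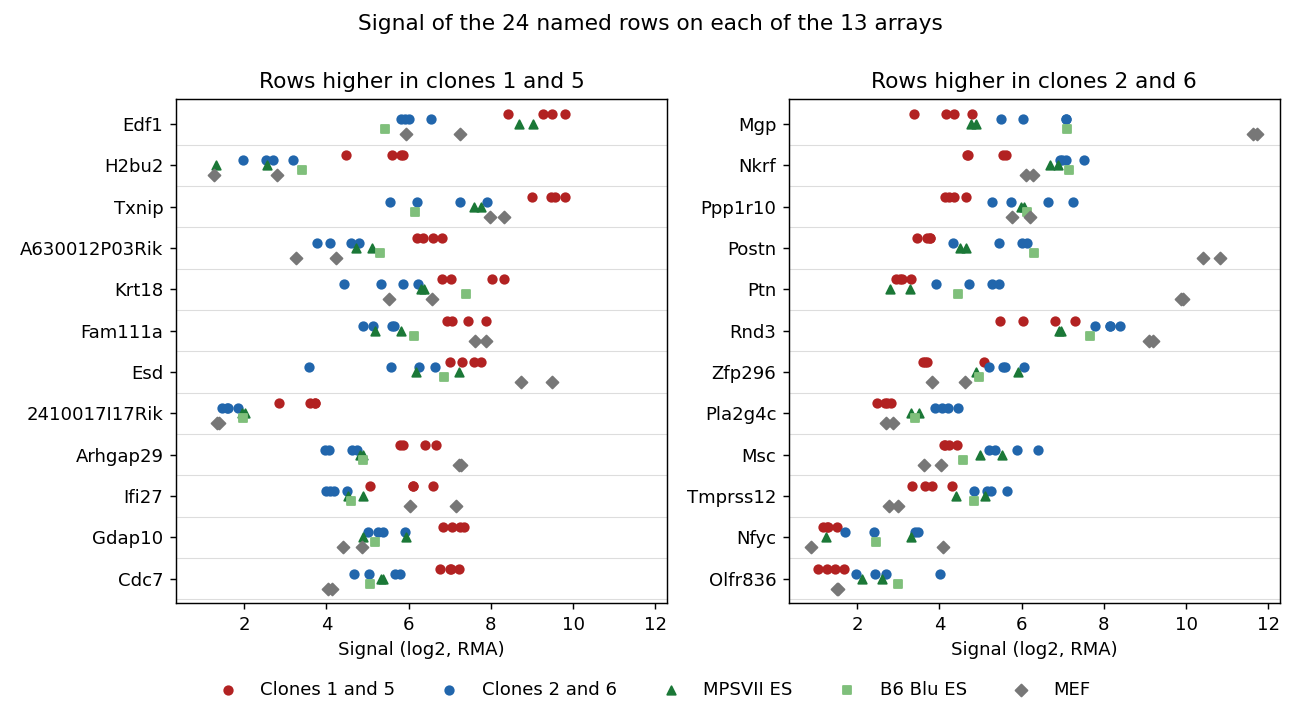
Log2 signal (RMA, x axis) of the 12 rows with the largest difference in each direction, with a point for every array: clones 1 and 5 (red circles), clones 2 and 6 (blue circles), MPSVII ES (dark triangles), B6 Blu ES (light squares) and MEF (grey diamonds). Edf1 in MPSVII ES lies with clones 1 and 5, H2bu2 is high in clones 1 and 5 and in no other line, and Mgp, Postn and Ptn are far higher in MEF than in any clone.

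Among the 12 named rows higher in clones 2 and 6, 3 encode secreted proteins of connective tissue. Mgp, an inhibitor of calcification, had 3.38, 4.36, 4.79 and 4.17 in clones 1 and 5 against 7.08, 6.04, 7.07 and 5.49 in clones 2 and 6, a difference of -2.25. Postn, the matrix protein periostin, had 3.69, 3.78, 3.77 and 3.45 in clones 1 and 5 against 6.00, 5.44, 6.14 and 4.34 in clones 2 and 6 (-1.81). Ptn, the growth factor pleiotrophin, had 3.05, 2.95, 3.32 and 3.08 in clones 1 and 5 against 5.46, 4.73, 5.29 and 3.91 in clones 2 and 6 (-1.75). In each of the 3, the second array of clone 6 was the lowest of its pair of clones. All 3 were highest in MEF, with Mgp at 11.74 and 11.63, Postn at 10.82 and 10.41 and Ptn at 9.89 and 9.93, and the single B6 Blu ES array, at 7.11 for Mgp and 6.29 for Postn, was above all 8 clone arrays for both.

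Because all 3 were highest in MEF, a list of fibroblast and matrix genes was followed beside them. It holds Mgp and Postn but not Ptn. Over its 32 measured genes, mean log2 signal was 4.54, 4.57, 4.82 and 4.54 in clones 1 and 5 and 5.35, 4.78, 4.97 and 4.46 in clones 2 and 6, against 4.66 and 4.55 in MPSVII ES, 5.73 in B6 Blu ES and 8.37 and 7.89 in MEF. In the list, Mgp and Postn were without overlap and 0 genes were higher in clones 1 and 5. On average 24 of the 32 were higher in clones 2 and 6, beside 7351 of all 16661 rows. The list means and this count include Mgp and Postn, which were taken because their arrays did not overlap. MPSVII ES were below MEF in 31 of the 32. The median difference of the list was -0.21, and -0.32 after quantile normalization. It was -0.39 between clones 1 and 5 and clone 2, and -0.04 between clones 1 and 5 and clone 6. Of all clone arrays, the second of clone 6 had the lowest list mean (4.46). The part of fibroblast RNA in these rows was not tested, and in such bulk samples fewer cells of a type and less RNA per cell cannot be told apart.

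The other 9 named rows, all but Rnd3, had a lower mean in MEF than in clones 2 and 6. Nkrf, a repressor of NF-kB target genes, had 4.66, 5.62, 5.54 and 4.70 in clones 1 and 5 against 6.94, 7.07, 6.97 and 7.52 in clones 2 and 6, a difference of -1.996. The ES cells stood with clones 2 and 6, at 6.68 and 6.88 in MPSVII ES and 7.15 in B6 Blu ES, and MEF a little lower, at 6.28 and 6.10, so that clones 1 and 5 were the lowest of all lines. Ppp1r10, a nuclear targeting subunit of protein phosphatase 1, was likewise lowest in clones 1 and 5, with 4.24, 4.37, 4.64 and 4.13 against 5.74, 5.29, 6.64 and 7.24 in clones 2 and 6. All 5 ES and MEF arrays had between 5.77 and 6.19 for it.

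Zfp296, a zinc finger gene known to promote mouse reprogramming, had 3.65, 5.08, 3.60 and 3.69 in clones 1 and 5 against 5.56, 5.22, 5.58 and 6.06 in clones 2 and 6. MPSVII ES had 5.91 and 4.89, B6 Blu ES 4.96 and MEF 4.63 and 3.81. Rnd3, whose product loosens the actin skeleton, had 6.80, 7.29, 6.02 and 5.46 in clones 1 and 5 against 8.15, 7.79, 8.16 and 8.38 in clones 2 and 6, and was higher still in MEF (9.20 and 9.10). Clone 5 was the lowest of all lines for Rnd3, and MPSVII ES, at 6.91 and 6.95, lay within the range of clone 1.

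Msc, the bHLH repressor musculin, had 4.14, 4.43, 4.12 and 4.23 in clones 1 and 5 against 5.35, 5.20, 5.90 and 6.39 in clones 2 and 6, with 4.99 and 5.51 in MPSVII ES. It was higher in MPSVII ES than in MEF by 1.42 ± 0.27 (adjusted p = 0.0101). The serine protease gene Tmprss12 (difference -1.46) and the phospholipase gene Pla2g4c (-1.48) also separated the pairs by more than 0.5 log2 units. Nfyc, a subunit of the CCAAT-binding factor NF-Y, and the olfactory receptor gene Olfr836 were dim, with means of 1.32 and 1.37 in clones 1 and 5 and 2.75 and 2.78 in clones 2 and 6. Replicates of clone 6 were 1.70 and 3.48 for Nfyc, and replicates of MEF 0.88 and 4.08. A second row of Nfyc was brighter and overlapped between the pairs, at 2.70 to 4.31 in clones 1 and 5 and 2.85 to 5.09 in clones 2 and 6, so the symbol has no settled difference.

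The pairs were not alike inside. In the 891 rows higher in clones 1 and 5, the median position against the mean of the 8 arrays was 0.37 for clone 1 and 0.33 for clone 5, but -0.53 for clone 2 and -0.17 for clone 6. In 290 of these rows the mean of clone 6 lay nearer to clones 1 and 5 than to clone 2. In the 331 rows higher in clones 2 and 6 the medians were more even, at -0.21 for clone 1, -0.24 for clone 5, 0.23 for clone 2 and 0.20 for clone 6. There clone 6 lay nearer to clones 1 and 5 than to clone 2 in 49 rows. How often clone 6 lay so over all rows was not counted, so the 290 and 49 rows have no background. The median size of the difference was 0.73 for rows higher in clones 1 and 5 and 0.47 for the others. A mean difference of at least 1 was reached by 186 and 57 rows, and a gap of at least 0.25 between the nearest arrays by 236 and 49.

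How many rows were higher in clones 2 and 6 depended on how the arrays were brought to a common scale. Of the rows without overlap, 72.9% were higher in clones 1 and 5 in the deposited values and 74.3% after median centring, but 57.4% after quantile normalization and 54.9% after an intensity-dependent (loess) normalization. The rows higher in clones 2 and 6 then numbered 723 and 762. A set of 546 rows higher in clones 1 and 5 and 214 rows higher in clones 2 and 6 was without overlap under all 4 scalings, and the 24 named rows were chosen from among them. Leaving out an array can only raise these counts, most of all for clone 6 replicate 2, without which 2065 rows were higher in clones 1 and 5, and for clone 2 replicate 2, without which 769 rows were higher in clones 2 and 6. The rows left out as likely array controls, so taken from their low row numbers and missing gene annotation, were without overlap in 4.53% and 1.41% of cases.

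Signal moved with the direction. The rows were divided into 5 equal bins by the mean of the 5 ES and MEF arrays, which the choice of rows did not use. In the deposited values the share higher in clones 1 and 5 was 1.14%, 2.31%, 3.90%, 7.14% and 12.2% from the dimmest to the brightest bin, and the share higher in clones 2 and 6 was 1.92%, 2.55%, 2.37%, 1.74% and 1.35%. After quantile normalization 9.78% of the brightest rows were higher in clones 2 and 6. The direction of bright rows so moved with the scaling of the arrays, of which those of clone 2 had the narrowest spread, and the part of that spread in single rows was not tested.

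**Figure D2:**
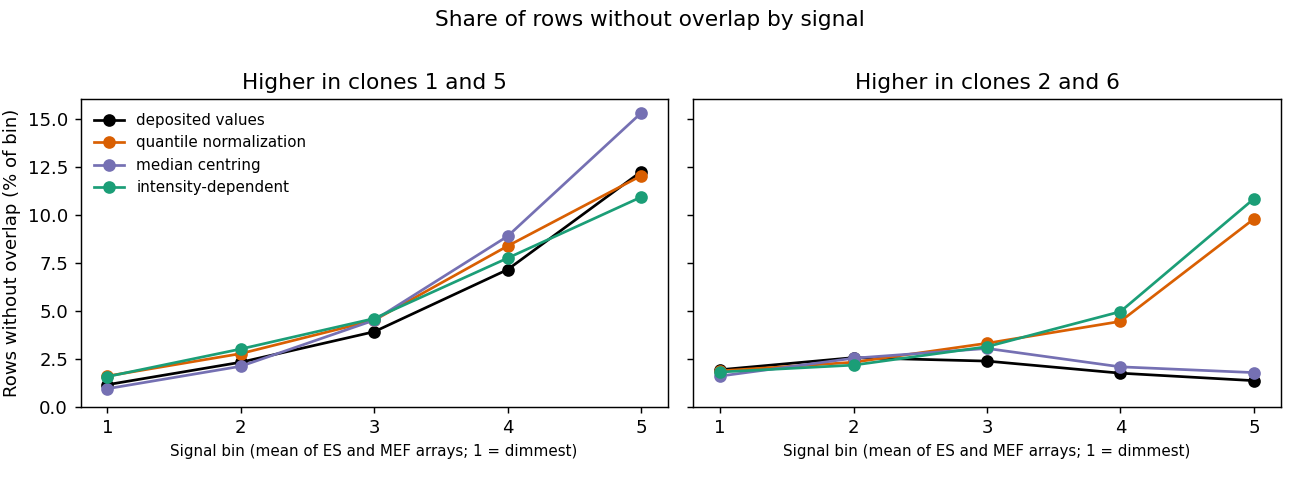
Share of the rows of each of 5 signal bins (x axis, 1 is the dimmest) that were without overlap (y axis, percent), higher in clones 1 and 5 on the left and higher in clones 2 and 6 on the right, under 4 scalings of the arrays. The left curves climb under every scaling, to 12.2% in the deposited values, while the right curves climb only after quantile or intensity-dependent normalization, to 9.78% and 10.8%.

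For each row, a line was counted as nearer to clones 2 and 6 when all its arrays lay on their side of the midpoint between the means of the pairs. Among rows higher in clones 1 and 5, MPSVII ES lay nearer clones 2 and 6 in 392 rows (44.0%), nearer clones 1 and 5 in 291 (32.7%) and was split in 208. Over all rows with the higher mean in clones 1 and 5, MPSVII ES lay nearer clones 2 and 6 in 28.3% and nearer clones 1 and 5 in 38.7%, with 33.0% split. Of the rows in which both MPSVII ES arrays lay on the same side, 57.4% placed them with clones 2 and 6, against 42.3% of all rows of that direction. The B6 Blu ES array lay nearer clones 2 and 6 in 632 rows (70.9%, against 55.2% of all rows of that direction). Among the 186 rows with a difference of at least 1, these numbers were 103 (55.4%) for MPSVII ES and 163 (87.6%) for B6 Blu ES. The share over all rows with a difference that large was not counted, so these 186 rows have no matched background.

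Among rows higher in clones 2 and 6, MPSVII ES lay nearer clones 2 and 6 in 149 (45.0%, against 35.6% of all rows of that direction) and nearer clones 1 and 5 in 88, so that 62.9% of the rows not split, against 56.4% over all rows, placed them with clones 2 and 6. B6 Blu ES lay nearer clones 2 and 6 in 209 (63.1%, against 60.6%), close to the background. In both directions the larger number of rows with a clear side placed the ES cells with clones 2 and 6. Over all rows this was also so, except for MPSVII ES among rows with the higher mean in clones 1 and 5 (42.3%). Under the other 3 scalings, the share for MPSVII ES stayed between 47.1% and 49.8% in rows higher in clones 1 and 5 and between 41.5% and 47.9% in rows higher in clones 2 and 6, against 34.7% to 35.8% and 27.6% to 32.2% of all rows of each direction. These shares count split rows as not nearer, and shares of the rows not split were taken in the deposited values only.

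MEF lay nearer clones 1 and 5 in 493 and nearer clones 2 and 6 in 314 (35.2%, against 30% of all rows of that direction) of the rows higher in clones 1 and 5. In rows higher in clones 2 and 6, MEF lay nearer clones 2 and 6 in 146 (44.1%, against 41.7%) and nearer clones 1 and 5 in 111. These placings of MEF turned with the scaling. After quantile normalization MEF lay nearer clones 2 and 6 in 52.7% of rows higher in clones 1 and 5 and in 29.0% of rows higher in clones 2 and 6, against 46.6% and 29.4% of all rows of each direction. Of the rows in which both MEF arrays lay on the same side, 38.9% and 56.8% placed them with clones 2 and 6 in the deposited values, close to the 37.4% and 57.9% of all rows. In 348 of the 891 rows higher in clones 1 and 5 the MEF mean was above all 8 clone arrays (39.1%, against 36.2% of all rows of that direction), and in 147 it was below them all (16.5%, against 12.6%).

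**Figure D3:**
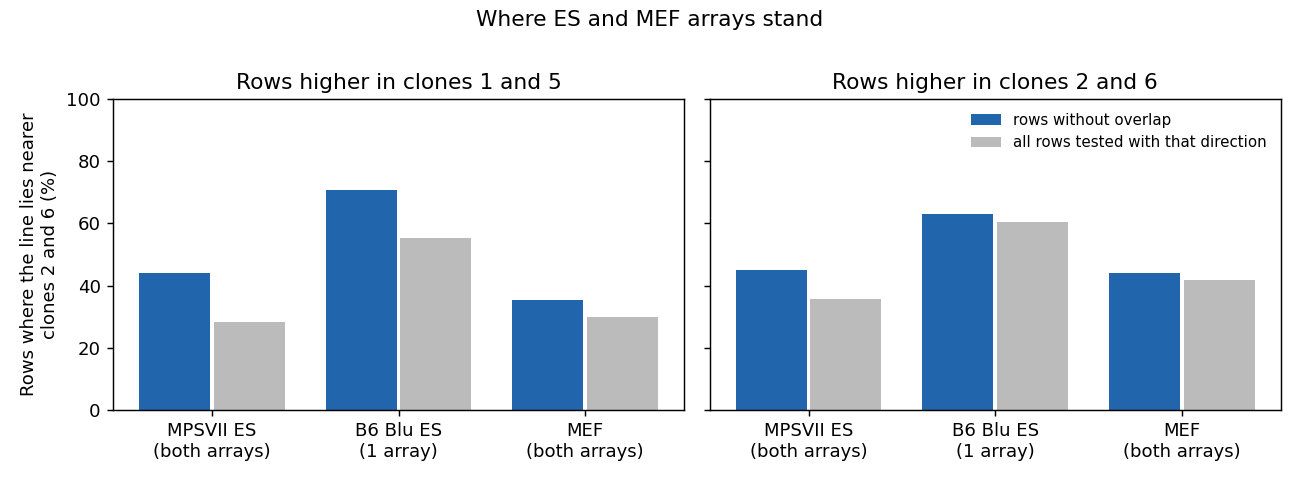
Share of rows (y axis, percent) in which the arrays of MPSVII ES, B6 Blu ES or MEF lay nearer clones 2 and 6, for rows without overlap (blue bars) and for all rows tested with the same direction (grey bars), with rows higher in clones 1 and 5 on the left and in clones 2 and 6 on the right. On the left the bars are at 44.0% and 28.3% for MPSVII ES and at 70.9% and 55.2% for B6 Blu ES; rows split between 2 arrays, fewer among the rows without overlap, count as not nearer.

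Whether the rows are ones that differ between ES cells and fibroblasts was tested on the ES and MEF arrays alone, with limma and Benjamini-Hochberg adjustment at 0.05 over all 16661 rows. Between MPSVII ES and MEF, 6.48% of all rows were called higher and 18.3% lower (1079 and 3056 rows, but 2257 and 2310 after quantile normalization). Of the rows higher in clones 1 and 5, 122 (13.7%) were called higher in MPSVII ES and 274 (30.8%) lower, and 495 were not called. Of the rows higher in clones 2 and 6, 32 (9.67%) were called higher and 61 (18.4%) lower, and 238 were not called. These directions moved with the scaling: with rows taken and tested after quantile normalization, 260 were called higher and 205 lower among rows higher in clones 1 and 5, and 210 higher and 93 lower among rows higher in clones 2 and 6. After intensity-dependent normalization the numbers were 203 higher and 214 lower, and 164 higher and 135 lower, against 1576 higher and 2612 lower of all rows. Bright rows are called more often, and in the brightest of the 5 bins 54.2% of the rows higher in clones 1 and 5 were called in either direction, against 49.5% of all rows of that bin. In the middle bin these shares were 30.8% and 20.3%. Of the rows higher in clones 2 and 6, 57.8% of the 45 in the brightest bin were called and 20.3% of the 79 in the middle bin. In the next-brightest bin the shares were 45.4% (higher in clones 1 and 5), 51.7% (higher in clones 2 and 6) and 36.6% (all rows). Between MPSVII ES and B6 Blu ES 2 rows (0.012%) were called, 0 of them among the rows without overlap, with 1708 rows at an unadjusted p under 0.05 and 0 to 52 called under other settings.

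Gene groups were followed with 21 lists, which name 711 genes, of which 476 were measured. Counts below are of genes without overlap, beside which 5.35% and 1.99% of all rows stand. For bright genes the share beside them is higher. In the next-brightest and brightest signal bins, 7.14% and 12.2% of rows were higher in clones 1 and 5. The lists were not set against rows of like signal. Medians are of the difference between the pairs, whose median over all rows was 0.04. Of all 16661 rows, 9310 had the higher mean in clones 1 and 5 and 7351 in clones 2 and 6. Mitotic genes were the list with the highest count together with the regulators of DNA methylation and chromatin, each with 8 genes higher in clones 1 and 5 and 0 higher in clones 2 and 6. Among 23 mitotic genes, which drive chromosome segregation, all had the higher mean in clones 1 and 5, with a median difference of 0.45. The spindle checkpoint kinase gene Bub1 had 8.66, 9.02, 8.99 and 8.82 in clones 1 and 5 against 7.05, 6.96, 8.24 and 8.42 in clones 2 and 6, and 7.80 and 8.04 in MPSVII ES. Ttk, Bub1b and the proliferation marker Mki67 differed by 1.16, 1.11 and 1.00.

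Clone 2 was the low line in this list. The median difference was 0.75 between clones 1 and 5 and clone 2 and 0.22 between clones 1 and 5 and clone 6, and it was 0.14 after quantile normalization, with 8 genes then higher in clones 1 and 5 and 1 higher in clones 2 and 6. MPSVII ES were above MEF in 22 of the 23 genes by limma's test, Bub1 by 2.46 ± 0.20 (adjusted p = 0.000456).

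Of 24 genes of DNA methylation and chromatin, 22 had the higher mean in clones 1 and 5, with a median difference of 0.21 (0.05 after quantile normalization, when 4 genes were without overlap). The median difference was 0.58 between clones 1 and 5 and clone 2, and 0.11 between clones 1 and 5 and clone 6. Dnmt3b, a de novo DNA methyltransferase, had 6.22, 6.47, 6.55 and 6.28 in clones 1 and 5 against 5.05, 4.69, 5.33 and 6.21 in clones 2 and 6. Dnmt3l, its catalytically inactive partner, had 6.84, 7.48, 7.39 and 6.80 in clones 1 and 5 against 6.15, 6.03, 5.60 and 6.74 in clones 2 and 6. For both, the second array of clone 6 came within 0.1 log2 units of clones 1 and 5. Uhrf1, which guides maintenance methylation, and Ezh1, a Polycomb methyltransferase gene, differed by 0.99 and 0.94. The arrays of Uhrf1 overlapped after quantile and intensity-dependent normalization. Dnmt3b was at 5.92 and 5.97 in MPSVII ES, within the range of clones 2 and 6, and at 6.82 in B6 Blu ES. Dnmt3l was at 7.18 and 6.99 in MPSVII ES, within the range of clones 1 and 5, and at 6.01 in B6 Blu ES, within that of clones 2 and 6.

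Sugar and oxygen metabolism was the group around Txnip. Of 20 genes of the Txnip and glucose list, 5 were higher in clones 1 and 5, with a median difference of 0.42 (0.29 after quantile normalization). The 5 include Txnip itself, a marker of the split, and Mlxip, which was without overlap by a small margin. The hexokinase genes Hk2 and Hk1, for the entry step of glycolysis, differed by 0.75 and 0.53, and Acaca, for the committed step of fatty acid synthesis, by 0.71. The arrays of Hk2 overlapped after quantile and intensity-dependent normalization. Of 24 genes of glycolysis and the hypoxia response, 6 were higher in clones 1 and 5 and 0 in clones 2 and 6, with a median of 0.45 (0.23 after quantile normalization, with 5 without overlap).

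The hypoxia-induced collagen hydroxylase gene P4ha1 had 6.73, 7.23, 7.26 and 6.73 in clones 1 and 5 against 5.41, 4.70, 5.66 and 6.08 in clones 2 and 6, a difference of 1.53. Ero1a, an oxidase of the endoplasmic reticulum, differed by 1.38, the aldolase gene Aldoc by 1.10 and Egln1, an oxygen-sensing hydroxylase gene, by 0.93. ES cells were on the low side for P4ha1 (5.66 and 5.56 in MPSVII ES, 5.23 in B6 Blu ES), and MEF had 8.79 and 8.25.

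Cholesterol synthesis had 4 of 20 genes higher in clones 1 and 5 and 0 in clones 2 and 6, with a median of 0.44, but 1 gene without overlap and a median of 0.22 after quantile normalization. They were the desaturase gene Scd1 (0.85), Msmo1 (0.79), the regulator Srebf2 (0.62) and Pmvk (0.47). MPSVII ES cells were lower still for Scd1, at 4.57 and 4.19, against 6.24 to 6.69 in clones 1 and 5 and 5.35 to 5.97 in clones 2 and 6. Of 48 genes of oxidative phosphorylation, 47 had the higher mean in clones 1 and 5, with 3 without overlap (Uqcr10, Ndufv3 and Ndufv2), and a median of 0.40 that was 0.12 after quantile normalization. These genes are bright, and of all rows in the brightest signal bin 12.2% were higher in clones 1 and 5 without overlap. Their median difference was 0.61 against clone 2 and 0.22 against clone 6.

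The pluripotency list did not separate the pairs as a group. Of 26 measured genes, Dppa4 was higher in clones 1 and 5 and Nr0b1 higher in clones 2 and 6, and the median of 0.09 turned to -0.18 after quantile normalization. Dppa4, a chromatin protein of early embryonic cells, had 8.25, 8.12, 8.63 and 8.34 in clones 1 and 5 against 5.74, 7.01, 7.97 and 7.82 in clones 2 and 6, so that clone 2 alone was far down, and its arrays overlapped after quantile normalization. Nr0b1 (Dax1), a nuclear receptor that tempers Oct4, had 6.43, 6.53, 6.50 and 5.87 in clones 1 and 5 against 7.65, 6.69, 7.78 and 7.98 in clones 2 and 6, and 8.51 and 7.997 in MPSVII ES. Pou5f1, which encodes Oct4, averaged 7.87 in clones 1 and 5 and 7.17 in clones 2 and 6, with overlap.

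Several other lists gave few or no rows. Imprinted genes (26 measured), germ cell genes (18) and p53 targets (20) had 0 without overlap in either direction. Among 5 measured genes of the two-cell stage list Zfp809, a silencer of retroviruses, was higher in clones 2 and 6 (-1.14), and among 19 immediate early and heat shock genes Myc was (-0.40). Among 16 ribosomal protein genes Rplp0 was higher in clones 1 and 5 (0.89), and among 10 X-linked and sex-linked genes Zfp280c was (0.84), but both overlapped after quantile and intensity-dependent normalization, when 0 genes of these 2 lists were higher in clones 1 and 5. Of 31 early lineage genes, Krt18 was higher in clones 1 and 5 and Gata4, at a margin of 0.008, in clones 2 and 6. Of 27 genes of the amino acid and ER stress response, the chaperone genes Hspa5 (0.68) and Hsp90b1 (0.47) were higher in clones 1 and 5 and Stc2 (-0.75) and Chac1 (-0.48) higher in clones 2 and 6. After quantile normalization this list held 1 gene higher in clones 1 and 5 and 7 higher in clones 2 and 6. The transcription coactivator list had, beside Edf1, the Mediator subunit genes Med21 (0.66), Med15 (0.46) and Med12 (0.38) among 36 genes, and 3 higher in clones 1 and 5 and 6 higher in clones 2 and 6 after quantile normalization. Edf1 differed by 2.79 under that scaling.

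Interferon response and macrophage genes had 3 each higher in clones 1 and 5 and 0 higher in clones 2 and 6. After quantile and intensity-dependent normalization the interferon list had 4 and 5 and the macrophage list 2 and 1. Bst2, an antiviral membrane tether, had 7.10, 7.59, 7.32 and 6.83 in clones 1 and 5 against 5.38, 4.51, 6.53 and 6.58 in clones 2 and 6. Stat2, the signal transducer of type I interferon, and Gbp2, an interferon-induced GTPase gene, differed by 0.73 and 0.61, while the median of the 19 interferon genes was 0.18. Of 15 macrophage genes, the elastase gene Mmp12 had 6.38, 6.79, 5.23 and 5.04 in clones 1 and 5 against 3.99, 4.50, 4.62 and 3.63 in clones 2 and 6, and 11.17 and 11.05 in MEF. Cd68 and Laptm5, of lysosomes of myeloid cells, differed by 1.15 and 0.73.

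The MEF cultures carried macrophage transcripts, and all 15 genes of that list were lower in MPSVII ES than in MEF. Mean log2 signal over the list was 4.49, 4.51, 4.29 and 4.31 in clones 1 and 5 and 4.06, 4.17, 4.14 and 3.93 in clones 2 and 6, against 4.24 and 4.26 in MPSVII ES, 4.01 in B6 Blu ES and 9.09 and 8.80 in MEF. The pairs did not overlap in this mean, but it includes Mmp12, Cd68 and Laptm5, which were taken because their arrays did not overlap. Of the 15 genes, 8 had the higher mean in clones 1 and 5, and the median difference was 0.03. The part of macrophage RNA from feeder cells in these rows was not tested.

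**Figure D4:**
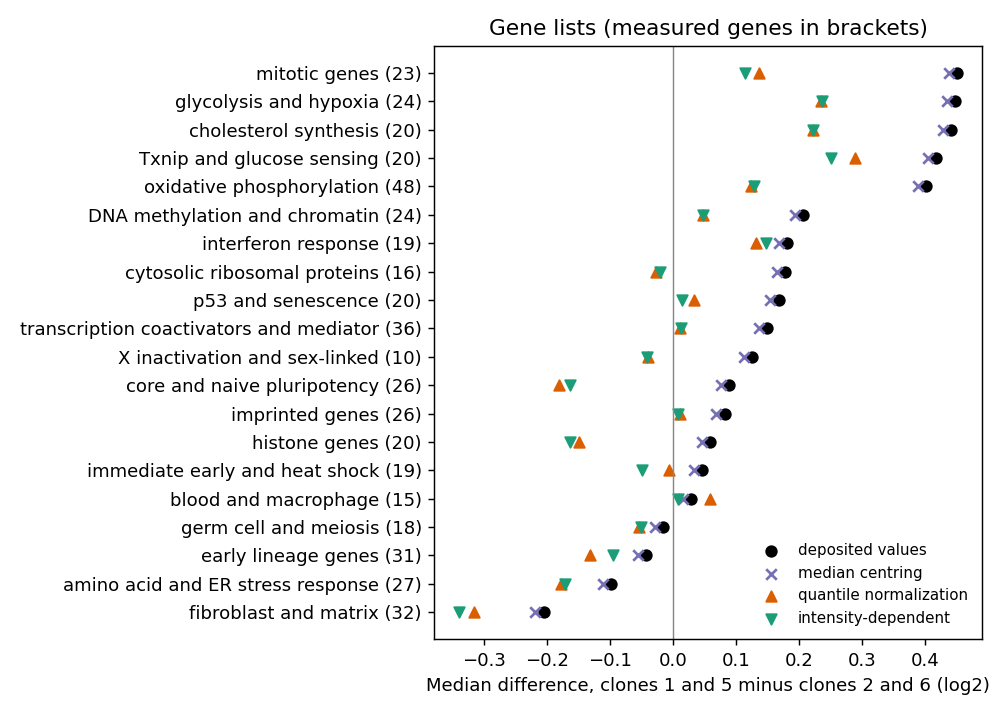
Median difference between clones 1 and 5 and clones 2 and 6 (x axis, log2) over the measured genes of each list with at least 10 of them, under 4 scalings of the arrays. Mitotic, glycolysis, cholesterol, glucose and oxidative phosphorylation lists lie between 0.40 and 0.45 in the deposited values and between 0.12 and 0.29 after quantile normalization, and the pluripotency list changes sign.

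Genes higher in clones 1 and 5 were the longer ones. The median gene length was 30.8 kb for rows higher in clones 1 and 5 and 16.3 kb for rows higher in clones 2 and 6, against 20.03 kb for all rows. Genes under 5 kb made up 9.30%, 25.2% and 18.2% of these sets. Part of this came with olfactory receptor genes, which are short and dim: of their 718 rows, 6 (0.836%) were higher in clones 1 and 5 and 24 (3.34%) higher in clones 2 and 6. Their median signal was between 2.10 and 2.58 on every array. Without them the share of genes under 5 kb was 8.63% for rows higher in clones 1 and 5 and 19.5% for rows higher in clones 2 and 6, against 14.4% of all rows. By chromosome, from 3.56% (chromosome 13) to 7.14% (chromosome 9) of rows were higher in clones 1 and 5 on the autosomes and X, and from 1.33% (chromosome 8) to 2.81% (chromosome 15) higher in clones 2 and 6. Gene lengths, olfactory receptors and chromosomes were looked at after the values were seen.

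The rule has no margin, so the rows at its edge differ little from rows just outside it. Slc44a4 was higher in clones 1 and 5 with a gap of 1e-06 between the nearest arrays, and Fam20c and Pld3 were left out with a gap of 0. On the other side Doc2g was taken with a gap of 0.000115 and Gpatch4 left out with one of -5.5e-05. The median gap was 0.126 for rows higher in clones 1 and 5 and 0.074 for rows higher in clones 2 and 6.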

How the data were processed

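Per the submitters' processing notes, the authors made the deposited log2 signal with Affymetrix Expression Console and RMA, which corrects background, normalizes probes between arrays and summarises them; versions are not given in the sources used here. Scanner files and detection calls were not used here, so a dim row has no detection limit, and depth in reads does not apply. Of 23238 rows, 6577 were left out as array controls, a status taken from their low row numbers and missing gene annotation. Of the 16661 rows tested, 14939 carry 1 symbol, 989 several and 733 none, and 14884 were matched to RefSeq genes (GRCm38.p6), with 0 symbols changed.

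Differences are means of 4 arrays on each side, clones 1 and 5 minus clones 2 and 6. MPSVII ES, MEF and B6 Blu ES were compared with limma 3.58.1 in R 4.3.3 on their 5 arrays alone (2 residual and 4.39 prior degrees of freedom; Benjamini-Hochberg adjusted p under 0.05), and the B6 Blu ES array was assumed to vary like the others. Errors after fitted differences are limma's standard errors. The alternatives were other scalings (quantile, median, loess with span 0.3), row filters, variance priors, a replicate block and leaving out arrays or clone 2.

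Named rows were the 12 single-gene rows with the largest mean difference each way among those without overlap under 4 scalings, the markers Edf1, H2bu2 and Txnip, up to 4 members of each list without overlap, and rows at the edge of the rule. The clone pairs, members and lists were chosen with earlier results of these data known.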

Additional observations from a re-analysis of the deposited data

Results flagged for a closer look

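Among 150 groups of 4 arrays (the 75 named rows, each in clones 1 and 5 and in clones 2 and 6), 9 had an array that stood apart from the other three by Dixon's 95% criterion, which sets its gap to the nearest array against the range of the group. Chance flags about 1 in 20 such groups, and the 4 arrays come from 2 clones. In clones 1 and 5, Zfp296 was 5.08 on the second array of clone 1, far above the other three, and so nearer to clones 2 and 6. Also in clones 1 and 5, 2410017I17Rik was low at 2.83 and Scd1 low at 6.24 on the first array of clone 1, Ezh1 was high at 5.41 on its second array, Nr0b1 was low at 5.87 on the second array of clone 5, and Ipmk was high at 6.58 on the first array of clone 5. In clones 2 and 6, Ezh1 was high at 4.60 on the second array of clone 6, and on the first array of clone 6 Fam20c was high at 3.44 and Pld3 low at 3.97.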

How the results depend on the processing

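Rows higher in clones 1 and 5 numbered 975 after quantile normalization, 1057 after median centring, 927 after intensity-dependent normalization and 814 without dim rows, within 1.5 times of 891. Rows higher in clones 2 and 6 (331) became 723 after quantile and 762 after intensity-dependent normalization and 203 without dim rows. Without dim rows fewer rows were tested, so 814 and 203 could only lie below the main counts. Their shares of the rows kept were not counted. Leaving out clone 2 gave 1680 and 1492 rows, and clone means as samples gave 3942 and 2466. With fewer values to keep apart these counts can only rise, so they do not test the split. A gap of at least 0.25 gave 236 and 49 rows, and a mean difference of at least 1 gave 186 and 57. Such limits can only lower the counts. Leaving out any 1 array gave 983 to 2065 and 446 to 769 rows; by construction these counts can only rise, and over 1.5 times without clone 5 replicate 2 (1609) or clone 6 replicate 2 (2065) for clones 1 and 5, and without every array but clone 2 replicate 1 for clones 2 and 6. No named difference changed sign under any setting, but for rows without overlap, leaving out 1 array or clone 2 cannot change the sign. Of 71 named rows without overlap, 55 were so after quantile normalization, 69 after median centring and 53 after intensity-dependent normalization. The 12 rows named each way for the largest difference are among the 71 and were chosen as without overlap under every scaling. They are kept in these counts by construction, so the counts do not test them.

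The replicate numbers did not pair the samples, since deviations of same-numbered arrays correlated between -0.24 and 0.24. With a replicate block 999 and 482 rows were without overlap, and MPSVII ES minus MEF had 4223 calls, against 4135 without it. No block could be fitted for the single B6 Blu ES array.

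MPSVII ES minus MEF gave 1079 higher and 3056 lower rows, but 2257 and 2310 after quantile normalization. MPSVII ES minus B6 Blu ES (2 calls) gave 44 after quantile normalization, 15 after median centring, 52 without dim rows, 6 with single-symbol rows, 0 over all rows of the table, 34 with all 13 arrays and 12 with a trended prior; leaving out 1 array gave 6 to 29. For MPSVII ES nearer clones 2 and 6 in rows higher in clones 1 and 5, 44.0% became 49.8% after median centring and 49.8% after intensity-dependent normalization. For B6 Blu ES, 70.9% and 63.1% became 78.2% and 54.6% after median centring. For MEF, 35.2% became 52.7% (quantile), 44.7% (median) and 48.4% (intensity-dependent) in rows higher in clones 1 and 5, and 44.1% became 29.0% (quantile) and 33.6% (median) in rows higher in clones 2 and 6. Over all rows of the first direction the MEF share moved likewise, with 30% becoming 46.6%, 46.7% and 42.5%, so that after median centring the rows without overlap lay below it; over all rows of the second, 41.7% became 29.4% and 26.8%. The cause of these shifts was not tested. The number of arrays limits the precision, with 2 lines on each side.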
